A study of Homo sapiens with 18 samples.

Results

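Gene expression in HEK293 cells that carried an expression vector for RHOXF1 was compared with that in cells that carried a control vector, in both cases 48 h after transfection. The comparison rests on 6 arrays, the 3 labelled RHOXF1 48h and the 3 labelled control 48h, and covers all 21214 transcript clusters that carry a gene symbol, of 33297 on the array. A transcript cluster is the set of probes that reads 1 gene or transcript locus. HEK293 is a long-established human embryonic kidney cell line. The series as a whole has 18 arrays in 6 groups of 3: RHOXF1, RHOXF2 or control vector, each at 24 h and at 48 h. All groups had been transfected with Lipofectamine 2000 as the carrier, so the control cells share the carrier and a plasmid with the RHOXF1 cells. The treatment text names OriGene as the source of the plasmids and lists pCMV6-AC-GFP beside the RHOXF1 clone. Whether the RHOXF1 plasmid or the control plasmid encodes GFP is not stated and was not analysed here. Each group is labelled as a biological triplicate. Nothing says that its cultures came from separate days or passages, so p-values measure the spread between these arrays.

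RHOXF1 belongs to the reproductive homeobox genes on the X chromosome, which are expressed mainly in germ cells, gonads and placenta. Its protein carries a homeodomain, the DNA-binding fold of homeobox proteins, and acts as a transcription factor. In the mouse, the related Rhox genes form a large cluster, and Rhox5 of Sertoli cells is the best studied of them. HEK293 cells received the gene on the vector, and the arrays read its RNA and not its protein. In a transient transfection only a share of the cells takes up the plasmid. The arrays average over all cells, and a smaller number of responding cells cannot be told apart from a smaller response per cell.

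At 48 h, RHOXF1 itself was higher and 1 other transcript, that of the pseudogene ADAM20P1, was lower than in control. ADAM20P1 stayed near its 24 h level in RHOXF1 cells, while control cells read higher at 48 h. Its call was lost in several alternative fits, and RHOXF2 cells differed from control in the same direction. No other gene passed the test. Closest to passing came CLDN1, a tight junction gene, and DNAJB1, a co-chaperone gene of HSP70, which read higher, and the small nucleolar RNA SNORD117, which read lower. HSP70 genes, chaperonins and NRF2 targets mostly read slightly higher, and small nucleolar RNAs mostly slightly lower. The paragraphs that follow give the levels on every array. All levels are log2 values of the RMA method (background correction, quantile normalization and summary per cluster), so a difference of 1 is a 2-fold difference. Differences are RHOXF1 minus control, with the moderated standard error (SE) of limma. A difference is called where limma's p, adjusted over the 21214 clusters by the Benjamini-Hochberg method, is under 0.05. Genes that did not pass are said to read higher or lower, with their values.

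The 3 RHOXF1 arrays of 48 h resembled each other somewhat more than the 3 control arrays did. Across the named clusters, the correlation with the other arrays of the group ran from 0.9960 to 0.9975 for RHOXF1 and from 0.9925 to 0.9946 for control. In a principal component analysis of the 6 arrays, the first component held 35.4% of the variance and placed the control arrays at 11.9, -8.83 and -22.04 and the RHOXF1 arrays at -0.30, 13.4 and 5.77, so that the groups overlap on it. On the second component, with 21.3%, the RHOXF1 arrays lay at 9.10, 7.93 and 5.00 and the control arrays at -12.7, -14.1 and 4.80. Of 13 measured marker genes of HEK293 (kidney, neural crest and keratin genes), 12 lay above the median level of all clusters, and PAX2 lay below it. Of 25 markers of leukocytes, endothelium, fibroblasts, muscle, erythroid cells and liver, 3 lay above that median (ACTA2, CD68 and COL1A1). None of the 25 had an unadjusted limma p under 0.05, and their median difference was 0.03.

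RHOXF1 read 12.29, 12.27 and 12.25 on the RHOXF1 arrays and 5.67, 6.20 and 6.51 on the control arrays. The groups lie far apart, and the RHOXF1 arrays differ from each other by less than the control arrays do. The difference was 6.14 ± 0.34 (SE, n = 3 against 3, limma adjusted p = 9.06e-09). At 24 h the RHOXF1 arrays had read 12.13, 12.29 and 12.32, so the level of the transcript at 48 h lay within the range of 24 h. On the RHOXF1 arrays this cluster lay at or above percentile 98.9 of all named clusters, where array signal can be compressed. The cluster shared by RHOXF2 and its copy RHOXF2B, the other human genes of the family, read 6.09, 6.98 and 6.25 against 6.47, 6.44 and 6.95 in control. The arrays overlap (-0.18 ± 0.23, adjusted p = 0.905). Among 30 measured genes of the wider paired class of homeobox genes, which include RHOXF1's relatives, 18 read higher and 12 lower, with a median difference of 0.05 (-0.03 without control replicate 3) and none called; ALX4, a gene of craniofacial development, had the smallest p among them (0.28 ± 0.12, unadjusted p = 0.0242).

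**Figure D1:**
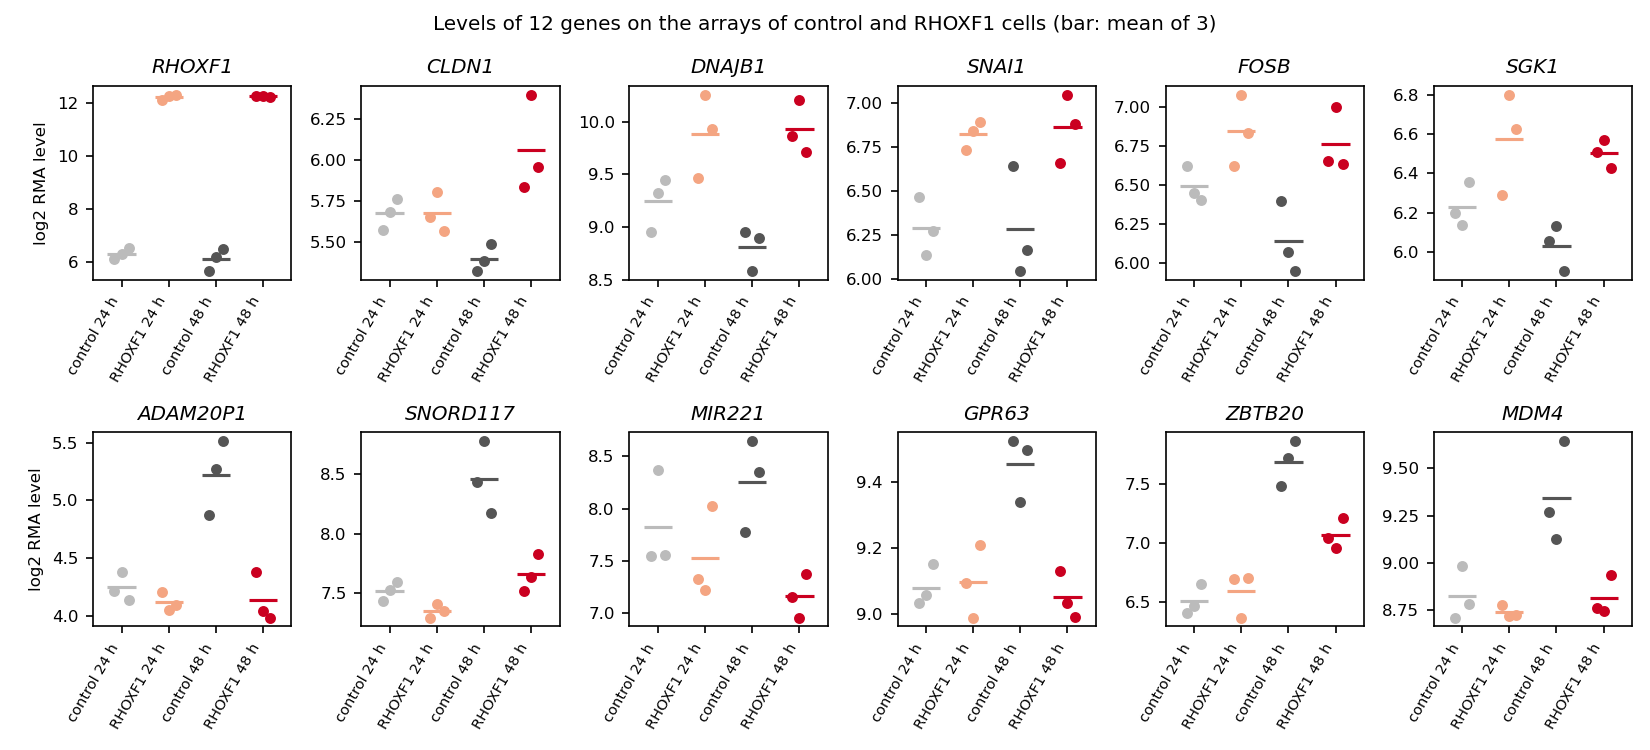
Log2 RMA level of 12 genes (y axis, a different range in each panel) on the single arrays of control and RHOXF1 cells at 24 h and 48 h; each point is an array and each bar the mean of 3. RHOXF1 stands at 12.25 to 12.29 in RHOXF1 cells at 48 h against 5.67 to 6.51 in control, and ADAM20P1 at 3.98 to 4.38 against 4.88 to 5.51.

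ADAM20P1 is a pseudogene of the ADAM family of membrane metalloproteases. It read 4.38, 4.04 and 3.98 with RHOXF1 and 4.88, 5.27 and 5.51 in control, and the groups do not overlap. The difference was -1.08 on the log2 scale (SE 0.14, limma adjusted p = 0.00375), which is 2.12-fold lower with RHOXF1. The transcript is dim, with a mean level at percentile 8.98 of all named clusters. On the other arrays of RHOXF1 and control cells it read 4.21, 4.05 and 4.10 (RHOXF1, 24 h) and 4.22, 4.38 and 4.14 (control, 24 h). The 3 control arrays of 48 h are therefore the high ones among these 12, and the RHOXF1 arrays of 48 h lie near those of 24 h. Control cells were higher at 48 h than at 24 h by 0.97 ± 0.14 (limma adjusted p = 0.000481), and RHOXF1 cells by 0.02 ± 0.14. The difference at 24 h was -0.13 ± 0.14, and the 48 h difference exceeded it by -0.95 ± 0.20 (unadjusted p = 0.000137, adjusted p = 0.950). Leaving out RHOXF1 replicate 2 (-1.04, adjusted p = 0.0516) or replicate 3 (-1.01, adjusted p = 0.0597) ended the call. So did fits where only the 9 arrays of 48 h (adjusted p = 0.251) or only the 6 arrays compared (adjusted p = 0.439) set the spread.

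The parental type of gene behaved less uniformly. ADAM20, the protein-coding relative that gives the pseudogene its name, read 5.82, 5.63 and 5.84 against 5.65, 6.35 and 6.55. The arrays overlap, since control replicate 1 reads low (-0.42 ± 0.17, unadjusted p = 0.0204). The cluster shared by ADAM21 and ADAM21P1 read the other way, at 5.66, 5.98 and 5.48 against 5.27, 5.35 and 5.46, with all RHOXF1 arrays above control (0.35 ± 0.15, unadjusted p = 0.0334). Over the 21 measured members of the ADAM family, 13 read higher and 8 lower, and the median difference was 0.02. ADAM10, the widely expressed sheddase of the family, read 0.13 ± 0.08 (unadjusted p = 0.127).

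Across all 21214 clusters the differences were small. The median was 0.008 and the median SE 0.103. The 2 calls are 0.00943% of the clusters tested, 0.00471% in each direction. An unadjusted p under 0.05 was reached by 1531 clusters (7.22%), 869 of them higher (4.10%) and 662 lower (3.12%). The 3 RHOXF1 arrays all lay above the 3 control arrays for 1522 clusters (7.17%) and all below them for 1144 (5.39%). A difference beyond 0.5 was seen in 87 clusters, 27 higher and 60 lower, and beyond 1 in 7. Besides RHOXF1, ADAM20P1, DNAJB1 and MIR221, these 7 are 3 small RNA genes of large spread, named here after their values were seen. RNU5D-1, a spliceosomal RNA, read 6.62, 8.97 and 7.42 against 9.62, 9.00 and 7.83. SNORA23 read 10.65, 12.83 and 11.38 against 12.99, 12.48 and 12.68, and SNORA38B 12.16, 12.12 and 11.96 against 8.50, 11.96 and 12.28. For each of these the arrays of the groups overlap, and arrays of the same group differ by more than 1.

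**Figure D2:**
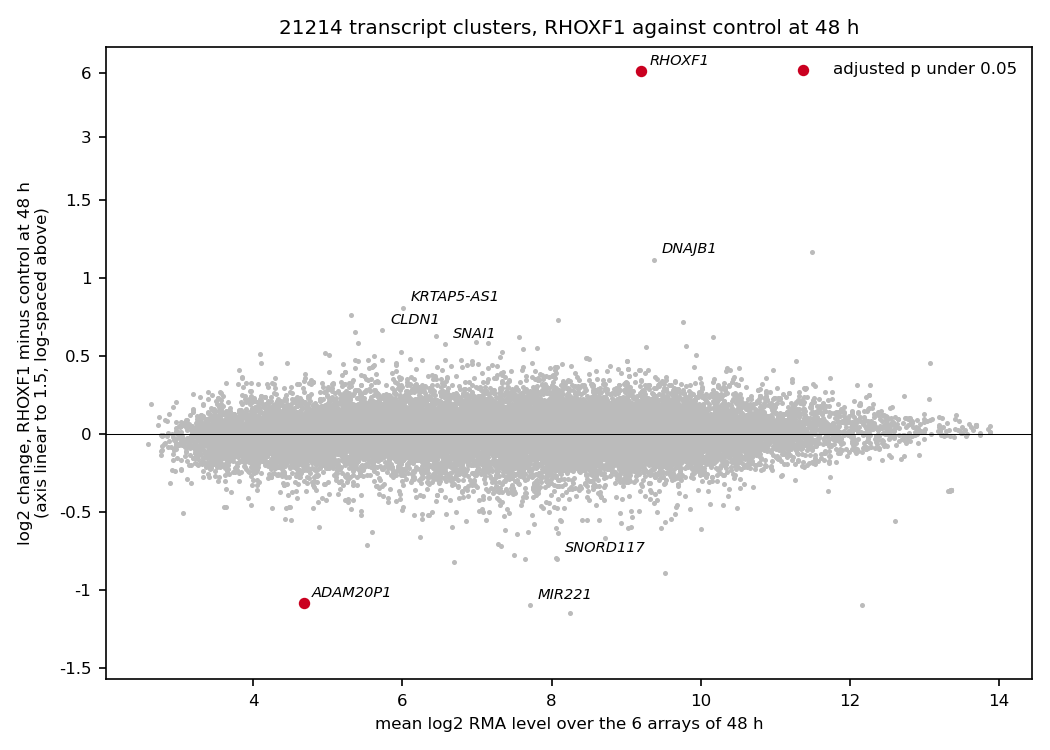
Each point is 1 of 21214 transcript clusters with a symbol, with the mean log2 RMA level over the 6 arrays of 48 h on the x axis and the log2 difference, RHOXF1 minus control, on the y axis (linear to 1.5, log-spaced above). The 2 called clusters, RHOXF1 at 6.14 and ADAM20P1 at -1.08, are in red, and selected others are named.

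CLDN1, a claudin that seals tight junctions between epithelial cells, came closest to the threshold. It read 5.83, 6.39 and 5.96 with RHOXF1 and 5.33, 5.38 and 5.49 in control, without overlap (0.66 ± 0.11, adjusted p = 0.0727). It passed only where RHOXF1 replicate 1 was left out (0.78, adjusted p = 0.0149). Over the 16 alternatives that kept this cluster, its difference ran from 0.50 to 0.78 and its adjusted p from 0.0149 to 0.693. At 24 h it had read 5.66, 5.80 and 5.57 with RHOXF1 against 5.58, 5.69 and 5.76, a difference of 0.00 ± 0.11. The 48 h difference exceeded that of 24 h by 0.66 ± 0.16 (unadjusted p = 0.000476, adjusted p = 0.950). The CLDN1 level of RHOXF1 cells at 48 h was the highest of the 4 groups, and that of control cells at 48 h the lowest.

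The other junction genes did not share this pattern. Of 25 measured genes of tight junctions and epithelial adhesion, 15 read higher and 10 lower, with a median of 0.06, or -0.02 over the members brighter than the median cluster and 0.01 without RHOXF1 replicate 1. Only CLDN1 had all RHOXF1 arrays above control (4.0%, against 7.17% of all clusters), and 2 members had all below (8.0%, against 5.39%). CLDN23 read 7.44, 7.42 and 7.50 against 7.44, 7.05 and 7.07, where control replicate 1 equals the RHOXF1 arrays (0.26 ± 0.11, unadjusted p = 0.0253). CLDN18 read 5.34, 5.40 and 5.48 against 5.56, 5.66 and 5.60 (-0.20 ± 0.07, unadjusted p = 0.0135). SNAI1, a zinc finger factor of epithelial-mesenchymal transition that is known to repress claudin and cadherin genes, read 6.66, 7.05 and 6.88 against 6.64, 6.05 and 6.17. Its arrays are separated by only a small gap, because control replicate 1 is high (0.58 ± 0.13, adjusted p = 0.388), and at 24 h the difference was 0.53 ± 0.13. SNAI2, a relative of SNAI1, read -0.09 ± 0.08, and the mesenchymal filament gene VIM -0.19 ± 0.11. Of 16 genes of that transition 12 read lower (median -0.05, or 0.03 without control replicate 2).

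Among the 15 genes of smallest p that read higher without overlap, RHOXF1 included, the 14 others spanned differences of 0.32 to 1.12 with adjusted p from 0.0727 to 0.388. DNAJB1 had the largest difference. It encodes an HSP40 protein that stimulates the ATPase of HSP70, and read 9.87, 10.20 and 9.71 against 8.95, 8.58 and 8.90 (1.12 ± 0.22, adjusted p = 0.278). Both groups are tight compared with the gap between them. KRTAP5-AS1, an antisense RNA of a keratin-associated protein locus, read 6.20, 7.03 and 6.0 against 5.52, 5.66 and 5.62. RHOXF1 replicate 2 is far above the others here (0.81 ± 0.18).

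Several of the other genes act in signalling at the membrane or on the cytoskeleton. SGK1, a kinase induced by serum and glucocorticoids, read 6.51, 6.57 and 6.43 against 6.06, 6.13 and 5.90 (0.47 ± 0.11). CORO1A, an actin-binding coronin, read 7.69, 8.23 and 7.70 against 7.39, 7.07 and 7.30 (0.62 ± 0.15). The RHOXF1 arrays of SGK1 are closely grouped, whereas CORO1A is again highest on replicate 2. DTX2, a deltex ubiquitin ligase of Notch signalling, read 6.78, 6.75 and 6.91 against 6.48, 6.21 and 6.31 (0.48 ± 0.10, adjusted p = 0.368).

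A further set acts in the nucleus or on protein ends. ACTL6A, an actin-related subunit of BAF chromatin remodelling complexes, read 9.45, 9.37 and 9.36 against 9.12, 9.04 and 8.80 (0.41 ± 0.09). ZNF22 (0.46 ± 0.10) and ZBTB42 (0.53 ± 0.13) are zinc finger genes, and SRA1 (0.54 ± 0.13) encodes the steroid receptor RNA activator and its protein. UBLCP1, a phosphatase of the proteasome, read 9.48, 9.62 and 9.38 against 9.24, 8.89 and 9.12 (0.41 ± 0.10). NAA50, an acetyltransferase of protein N-termini, read 12.44, 12.43 and 12.40 against 12.14, 12.14 and 12.05 (0.32 ± 0.08), the smallest difference of the 14 and one of the most even. For ACTL6A, SRA1, UBLCP1 and NAA50 the control mean of 24 h (9.46, 7.95, 9.65 and 12.45) lay above the RHOXF1 mean of 48 h (9.40, 7.89, 9.49 and 12.42).

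Among the 15 genes of smallest p that read lower without overlap, ADAM20P1 included, the 14 others spanned 0.29 to 1.10 in size with adjusted p from 0.278 to 0.457. SNORD117, a C/D box small nucleolar RNA encoded in an intron, read 7.52, 7.64 and 7.83 against 8.43, 8.78 and 8.18 (-0.80 ± 0.15, adjusted p = 0.278). GPR63, an orphan receptor, read 9.13, 9.03 and 8.99 against 9.52, 9.34 and 9.50 (-0.40 ± 0.08, adjusted p = 0.368). At 24 h the controls had read 7.44, 7.52 and 7.60 for SNORD117 and 9.03, 9.06 and 9.15 for GPR63, close to the RHOXF1 arrays of 48 h. The same holds for MDM4, the relative of MDM2 that inhibits p53, at 8.76, 8.75 and 8.94 against 9.27, 9.13 and 9.64 (-0.53 ± 0.13), with a control mean of 8.83 at 24 h.

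ZBTB20, a BTB zinc finger repressor, read 7.04, 6.96 and 7.21 against 7.48, 7.71 and 7.86 (-0.61 ± 0.14), while both groups of 24 h were lower still, with means of 6.59 and 6.51. ZNF449, another zinc finger gene, read -0.64 ± 0.15, and the long noncoding RNA TP53TG1 -0.32 ± 0.07. RAD52, a factor of homologous recombination, read 8.53, 8.13 and 8.44 against 8.61, 8.94 and 8.91 (-0.46 ± 0.12). KHDC4, an RNA-binding protein of splicing, read 10.40, 10.35 and 10.40 against 10.64, 10.67 and 10.69 (-0.29 ± 0.07), a small difference with little scatter in either group. AOC3, an amine oxidase known from vessel walls and fat, read -0.41 ± 0.09. The others are SPRR1A of the cornified envelope (-0.52 ± 0.12), the epididymal gene EDDM3B (-0.36 ± 0.09), the lysozyme-like gene LYZL1 (-0.47 ± 0.12) and FAM186A (-0.38 ± 0.08). FAM186A, EDDM3B and LYZL1 lay at percentiles 3.57, 5.54 and 1.99 of mean level.

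The microRNA gene MIR221 had the largest difference among these, and its sequence is shown because the neighbouring gene MIR222 makes a microRNA with the same seed. The mature sequences below are from RefSeq (GRCh38.p14), with the seed (bases 2 to 8), which pairs with targets, in capitals; both lie on the minus strand of the X chromosome, at chrX:45746180-45746202 and chrX:45747036-45747056.
hsa-miR-221-3p: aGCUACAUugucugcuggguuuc
hsa-miR-222-3p: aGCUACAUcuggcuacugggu
The array probes read the transcribed locus and not the mature microRNA. MIR221 read 7.15, 6.95 and 7.37 against 7.78, 8.64 and 8.35 (-1.10 ± 0.26, adjusted p = 0.388), with no overlap. MIR222 read 6.07, 5.41 and 5.78 against 5.96, 6.48 and 6.27, where RHOXF1 replicate 1 lies above a control array (-0.49 ± 0.22, unadjusted p = 0.0363). At 24 h their differences were -0.30 ± 0.26 and 0.33 ± 0.22. Of all 179 measured microRNA genes, 82 read higher and 97 lower, with a median of -0.01, and only 7 lay above the median level of all clusters. MIR30A (0.36 ± 0.10) and MIR138-2 (0.29 ± 0.08) had the next smallest p, both higher.

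Heat shock proteins are chaperones that fold and refold proteins, and many of their genes are induced together through heat shock factor when proteins unfold. The 64 measured genes were read in 5 groups by role. Together 50 read higher and 14 lower, with a median of 0.08 where all clusters had 0.008 and 52.6% of clusters read higher. The 3 RHOXF1 arrays lay above all control arrays for 17 of them (26.6%, against 7.17% of all clusters) and below for 1 (1.56%, against 5.39%). Of the 64 genes 50 lay above the median level, and in the brightest of 5 equal bins of all clusters 57.25% read higher and 9.215% lay above control without overlap. None was called, and 8 higher and 2 lower had an unadjusted p under 0.05. The median lay between 0.08 and 0.11 under every alternative setting tried.

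The HSP70 and HSP110 proteins are the central ATP-driven chaperones. Of 10 measured, 8 read higher, with a median of 0.27, or 0.18 without RHOXF1 replicate 2. For 6 all RHOXF1 arrays lay above control (60%, against 7.17% of all clusters). HSPA8, the constitutive HSP70 of all cells, read 13.14, 13.23 and 13.17 against 13.01, 12.82 and 13.03 (0.23 ± 0.07, unadjusted p = 0.00539). HSPA14, an HSP70 that binds ribosomes, read 8.61, 8.65 and 8.52 against 8.26, 8.26 and 8.32 (0.31 ± 0.09, unadjusted p = 0.00283). HSPA2, the testis-enriched HSP70, read 6.86, 7.17 and 7.01 against 6.83, 6.48 and 6.44 (0.43 ± 0.13, unadjusted p = 0.00417). All 3 genes keep the groups apart, HSPA2 by a small gap.

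The strongly inducible members stood differently. HSPA6, which is almost silent without stress, read 6.87, 6.91 and 6.81 against 6.56, 6.45 and 6.28 (0.43 ± 0.30, unadjusted p = 0.163). Its arrays do not overlap, but the pooled spread of this gene over the 18 arrays is wide. HSPA1B/HSPA1A, the brightest cluster of near-identical inducible genes that the array does not separate, read 12.96, 12.77 and 12.85 against 12.73, 12.91 and 12.63, with overlap (0.10 ± 0.09, unadjusted p = 0.289). HSPH1, the HSP110 nucleotide exchange factor, read 9.68, 9.94 and 9.50 against 9.45, 9.18 and 9.45 (0.35 ± 0.15, unadjusted p = 0.0362). HSPA4 (-0.03 ± 0.10) and HSPA13 (-0.11 ± 0.09) were the 2 members below 0.

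DNAJ proteins deliver clients to HSP70. Apart from DNAJB1, given above, 12 of the other 17 read higher and none kept the groups apart; the median of all 18 was 0.06, or 0.02 without RHOXF1 replicate 1. DNAJA1 came next, at 8.92, 9.15 and 8.78 against 8.96, 8.32 and 8.54 (0.34 ± 0.15, unadjusted p = 0.0316), with control replicate 1 inside the RHOXF1 range. In the chaperonins, the barrel-shaped folding machines of cytosol and mitochondria, 10 of 11 read higher with a median of 0.10. For 5 all RHOXF1 arrays lay above control (45.5%, against 7.17% of all clusters). CCT7, a subunit of the cytosolic barrel, read 12.11, 12.08 and 12.16 against 11.98, 12.02 and 12.02 (0.11 ± 0.07), and TCP1, another subunit, 12.65, 12.55 and 12.60 against 12.47, 12.51 and 12.51 (0.10 ± 0.07). HSPD1, the mitochondrial chaperonin, had the largest difference of the list (0.17 ± 0.09), with overlapping arrays.

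HSP90 and its co-chaperones, which mature kinases and hormone receptors, had 8 of 12 higher with a median of 0.07, or 0.04 without control replicate 3. HSP90AA1, the stress-inducible HSP90, read 12.38, 12.45 and 12.31 against 12.36, 12.10 and 12.19 (0.17 ± 0.08), whereas HSP90AB1, the constitutive form, read -0.11 ± 0.10. Of 13 small heat shock proteins and BAG nucleotide exchange factors, 11 read higher. Without overlap, 4 lay above control (30.8%, against 7.17% of all clusters) and 1 below (7.69%, against 5.39%). The 4 are BAG1, BAG2, BAG3 and BAG5, at 0.18 ± 0.09, 0.17 ± 0.09, 0.13 ± 0.11 and 0.23 ± 0.10. HSPB1, the main small heat shock protein of most cells, was level (0.02 ± 0.14), and HSPB3 was the one below control (-0.20 ± 0.09). Of the heat shock factors, HSF1, the main activator, read 0.08 ± 0.10 and HSF4 -0.24 ± 0.10.

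Control cells had mostly read higher on these lists at 24 h than at 48 h. Each array's median distance of the HSP70 and HSP110 list from the control mean of 48 h was 0.20, 0.32 and 0.14 on the RHOXF1 arrays of 48 h, and 0.31, 0.35 and 0.45 on the control arrays of 24 h. For chaperonins the values were 0.10, 0.08 and 0.09 against 0.15, 0.26 and 0.35. The RHOXF1 arrays of 48 h lay between the 2 sets of control arrays, except that replicate 2 reached the lowest control array of 24 h for HSP70 and HSP110 genes. Not every gene followed the list: the control mean of 24 h lay below the RHOXF1 mean of 48 h for DNAJB1 (9.24 and 9.93) and HSPA6 (6.59 and 6.86). The arrays of 48 h carry another run of array numbers than those of 24 h, so an effect of time on these levels cannot be told apart from one of the array batch.

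**Figure D3:**
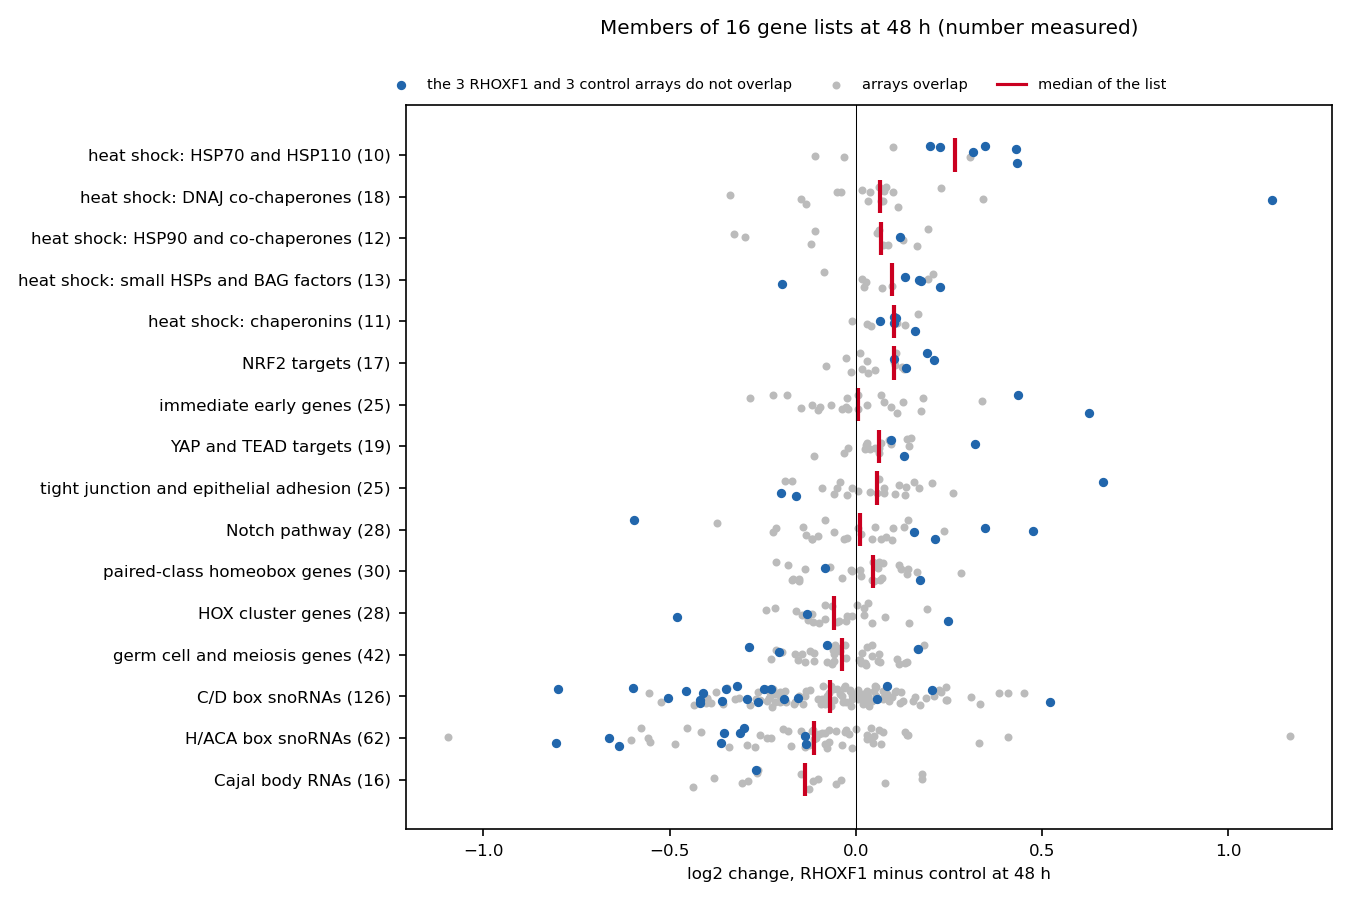
Log2 difference, RHOXF1 minus control at 48 h, of the members of 16 gene lists, with the number measured in brackets; each point is a transcript cluster, blue where the 3 RHOXF1 and 3 control arrays do not overlap, and each red line is the list's median. HSP70 and HSP110 genes have the highest median (0.27) and Cajal body RNAs the lowest (-0.14).

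Promoters were searched, from 250 bases before each gene's start to 50 after it, for parts of the heat shock element, the binding pattern of heat shock factor. The element consists of GAA units in alternating orientation with a spacing of 2 bases. A pair of units reads GAANNTTC or TTCNNGAA, each of which is its own reverse complement, so that 1 search covers both strands; a full element of 3 units contains both. The 250 bases before the start are printed from RefSeq on GRCh38.p14, 5′ to 3′ on the gene's strand. HSPA8 is shown because it holds the full element, DNAJB1 because it had the largest difference of the list, CLDN1 because it came closest to the threshold, and DTX2 because it holds TAATTA, the core pattern of many homeodomain proteins. Capitals mark the matches.
HSPA8, chr11:123062137-123062386, minus strand: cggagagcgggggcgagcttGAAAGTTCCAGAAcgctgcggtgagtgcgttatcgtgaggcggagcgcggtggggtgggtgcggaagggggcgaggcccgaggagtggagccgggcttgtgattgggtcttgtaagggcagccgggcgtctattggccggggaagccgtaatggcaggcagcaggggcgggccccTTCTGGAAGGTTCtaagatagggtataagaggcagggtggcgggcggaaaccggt
DNAJB1, chr19:14529272-14529521, minus strand: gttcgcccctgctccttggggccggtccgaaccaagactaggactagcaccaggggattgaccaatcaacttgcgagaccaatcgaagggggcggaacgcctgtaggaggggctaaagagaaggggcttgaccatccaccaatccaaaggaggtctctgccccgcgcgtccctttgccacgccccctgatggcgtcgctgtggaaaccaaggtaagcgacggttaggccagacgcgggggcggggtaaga
CLDN1, chr3:190322447-190322696, minus strand: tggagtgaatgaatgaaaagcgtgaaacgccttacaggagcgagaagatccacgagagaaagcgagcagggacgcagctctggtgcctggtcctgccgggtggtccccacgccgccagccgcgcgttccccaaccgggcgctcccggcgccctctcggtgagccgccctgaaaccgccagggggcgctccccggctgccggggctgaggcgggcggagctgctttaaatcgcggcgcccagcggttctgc
DTX2, chr7:76461459-76461708, plus strand: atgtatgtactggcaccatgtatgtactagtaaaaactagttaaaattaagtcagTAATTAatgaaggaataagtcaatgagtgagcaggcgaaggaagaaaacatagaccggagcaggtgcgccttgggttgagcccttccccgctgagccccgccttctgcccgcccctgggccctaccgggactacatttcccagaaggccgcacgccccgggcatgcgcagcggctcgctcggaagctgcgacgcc
In HSPA8 the full element begins 230 and 55 bases before the start, and none of these patterns lies in this window of DNAJB1 or CLDN1. The search covered 1 start per gene, so a match at another start of DNAJB1 or CLDN1 would be missed. The full element was found in 5 of the 55 heat shock genes with a promoter in the table (9.09%) and in 133 of all 27305 promoters (0.487%). The pair GAANNTTC was found in 12 of the 55 (21.8%) against 6.87% of all promoters, and TTCNNGAA in 9 (16.4%) against 7.84%. The 5 genes with the full element read 0.43 (HSPA6), 0.34 (DNAJA1), 0.23 (HSPA8), 0.03 (DNAJB6) and -0.12 (CHORDC1), a median of 0.23, where the other 50 had 0.09. The share that read higher was the same, 4 of 5 with the element and 40 of 50 without it in the window searched. None of the 13 promoters found for the 15 genes that read higher holds either pair. TAATTA lies 195 bases before the start of DTX2, the only 1 of those 13 promoters that holds it (7.69%, against 4.98% of all promoters). A match is a description of the letters and was not tested for binding.

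Immediate early genes are transcribed within minutes of a growth or stress signal and often work through serum response factor. Of 25 measured, 13 read higher and 12 lower, with a median of 0.01. The share with all RHOXF1 arrays above control, 2 genes (8.0%), was near the 7.17% of all clusters. FOSB, a subunit of the AP-1 factor, read 6.66, 7.01 and 6.64 against 6.40, 6.07 and 5.95 (0.63 ± 0.15, unadjusted p = 0.000585, adjusted p = 0.388). EGR1, a zinc finger factor, read 8.36, 8.69 and 8.40 against 8.28, 7.99 and 7.88 (0.44 ± 0.13, unadjusted p = 0.00338). Both are highest on RHOXF1 replicate 2 and, in control, on replicate 1. JUN (-0.22 ± 0.13), MYC (-0.15 ± 0.08) and the stress factor ATF3 (-0.28 ± 0.13) read lower. The list therefore has a few members above control and no common direction.

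The co-activator YAP and the TEAD transcription factors stand at the end of the Hippo pathway. Of 19 of their targets 16 read higher, with a median of 0.06. For 3 all RHOXF1 arrays lay above control (15.8%, against 7.17% of all clusters). CCN2, a matrix protein and standard target, read 8.64, 8.69 and 8.75 against 8.36, 8.42 and 8.33 (0.32 ± 0.09, unadjusted p = 0.00232), and at 24 h its difference was 0.30. ANKRD1, another target, read 5.43, 5.72 and 5.57 against 5.42, 5.41 and 5.61 (0.09 ± 0.20). The other targets differed by at most 0.15.

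NRF2 targets are the antioxidant genes switched on by oxidative stress. Of 17 measured, 14 read higher, with a median of 0.10 (0.06 without control replicate 2). For 4 all RHOXF1 arrays lay above control (23.5%, against 7.17% of all clusters). GCLM, a subunit of the enzyme of glutathione synthesis, read 7.43, 7.36 and 7.21 against 7.08, 7.15 and 7.14 (0.21 ± 0.11), and SRXN1, a sulfiredoxin, 9.33, 9.19 and 9.23 against 8.96, 9.11 and 9.12 (0.19 ± 0.10). PRDX1, which reduces peroxides, and the thioredoxin gene TXN read 0.14 ± 0.08 and 0.10 ± 0.08. No member had an unadjusted p under 0.05. As with the heat shock genes, the control arrays of 24 h were higher on this list, by a median of 0.22, 0.15 and 0.09, than the control mean of 48 h, where the RHOXF1 arrays lay at 0.07, 0.07 and 0.09.

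Notch genes, which carry signals between touching cells, had no common direction. Of 28 measured, 15 read higher and 13 lower (median 0.01, or -0.07 without control replicate 3 and 0.07 without control replicate 2). Without overlap, 4 lay above control (14.3%, against 7.17% of all clusters) and 1 below (3.57%, against 5.39%). Beside DTX2, the glycosyltransferase gene MFNG, which modifies Notch, read 5.34, 5.56 and 5.62 against 5.03, 5.32 and 5.13 (0.35 ± 0.10, unadjusted p = 0.00336), and the receptor gene NOTCH1 9.03, 9.02 and 9.03 against 8.87, 8.82 and 8.75 (0.21 ± 0.10). HES1, the classical Notch target, read lower, at 8.78, 8.61 and 8.91 against 9.08, 10.01 and 9.01 (-0.60 ± 0.21, unadjusted p = 0.0117). Control replicate 2 stands well above the other control arrays for HES1. The same array is high for the ligand gene DLL1, at 9.12, 10.02 and 9.42 in control against 9.25, 8.90 and 9.29.

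HOX genes, the homeobox genes of the body axis, had 19 of 28 members lower, with a median of -0.06. HOXA2, which acts in the hindbrain and neural crest, read 6.92, 6.84 and 6.72 against 7.37, 7.34 and 7.21 without overlap (-0.48 ± 0.15, unadjusted p = 0.00515). HOXC13, a gene of hair and nail, read the other way (0.25 ± 0.11). Netrin receptors and ligands, chosen because the receptor gene Unc5c is a known target of mouse Rhox5, showed no such difference: 5 of 13 read higher, UNC5C read 8.49, 8.32 and 8.41 against 8.31, 8.56 and 8.56 (-0.07 ± 0.10), and UNC5B -0.18 ± 0.09. Genes of Sertoli and Leydig cells split evenly, 11 higher and 11 lower, with a median of 0.00. Germ cell and meiosis genes had 19 higher and 23 lower (median -0.04); AKAP4, of the sperm tail, read 4.61, 4.68 and 4.54 against 5.02, 4.85 and 4.81 (-0.29 ± 0.11, unadjusted p = 0.0150). Only 6 of the 22 and 6 of the 42 genes of these lists lay above the median level of all clusters.

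Small nucleolar RNAs guide the chemical modification of ribosomal RNA, the C/D box class methylation and the H/ACA box class pseudouridylation, and most are cut from introns of host genes. Of 126 C/D box clusters 80 read lower, with a median of -0.07. It was -0.02 without control replicate 1 and -0.17 over clusters above the lower quartile of level. Without overlap, 16 lay below control (12.7%, against 5.39% of all clusters) and 4 above (3.17%, against 7.17%). Of 62 H/ACA clusters 47 read lower, with a median of -0.11, and 9 lay below without overlap (14.5%) and 0 above. None of either class was called. SNORD77 read 4.77, 4.59 and 4.38 against 4.97, 5.33 and 5.24 (-0.60 ± 0.17, unadjusted p = 0.00232). SNORA38 read 7.57, 8.11 and 7.64 against 8.16, 8.74 and 8.32 (-0.63 ± 0.17, unadjusted p = 0.00123), and in both groups replicate 2 was the highest. SNORA75 read 7.72, 7.77 and 7.51 against 7.83, 9.51 and 8.07, where control replicate 2 alone is far above (-0.80 ± 0.31). SNORD114-3 went the other way, at 4.81, 5.67 and 5.19 against 4.80, 4.76 and 4.55 (0.52 ± 0.19).

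A further 51 clusters, 48 of them with values of their own, list a small nucleolar RNA together with another gene, such as its host. Of the 48, 35 read lower, with a median of -0.12, and 17 lay below control without overlap (35.4%, against 5.39% of all clusters) while 0 lay above. The 17 are not separate loci, since SNHG1, TAF1D and GAS5 each have more than 1 of them. A cluster of SNORD115 copies and SNRPN among them lay near the bottom of the scale (means of 2.89 against 2.99). SNHG1, whose spliced RNA codes for no protein and whose introns hold several small nucleolar RNAs, has several such clusters. The one shared with SNORD27 read 7.08, 7.24 and 6.99 against 7.49, 8.07 and 8.08 (-0.78 ± 0.22, unadjusted p = 0.00194). The one shared with SNORD22 read 8.38, 8.48 and 8.27 against 8.53, 9.49 and 9.13 (-0.67 ± 0.19), and that with SNORD31 7.75, 7.78 and 7.75 against 7.91, 8.78 and 8.39 (-0.60 ± 0.18). In all 3 the RHOXF1 arrays are close together and the control arrays spread upward. Host genes measured by clusters of their own were not lower as a list (4 of 7 higher, median 0.02).

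The small nucleolar RNA lists varied strongly from array to array. The median distance of the H/ACA list from the control mean of 48 h was -0.31, 0.11 and -0.20 on the RHOXF1 arrays and -0.01, 0.05 and -0.02 on the control arrays, so RHOXF1 replicate 2 lay above every control array. Without that array the median was -0.26. The control arrays of 24 h lay at -0.38, 0.07 and -0.06, a spread as wide as that of the RHOXF1 arrays. Cajal body RNAs, a related class that guides the modification of spliceosomal RNAs, had 13 of 16 lower (median -0.14), with array values of -0.41, 0.18 and -0.19, and their median was 0.01 without RHOXF1 replicate 1.

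**Figure D4:**
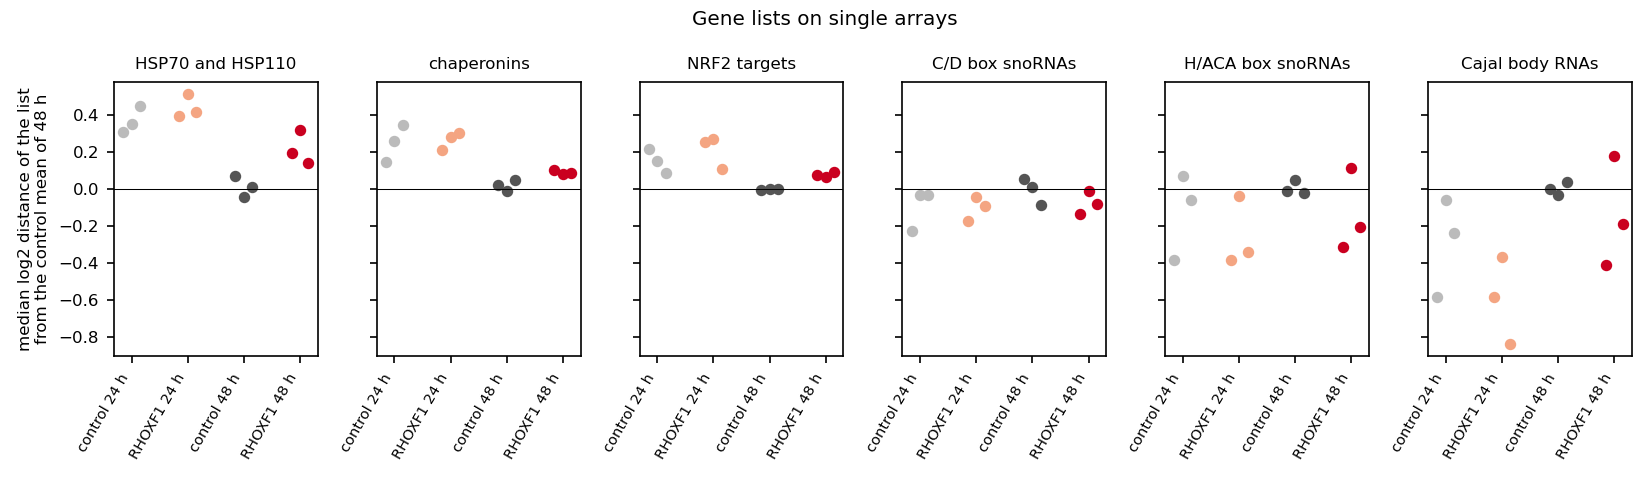
Median log2 distance of 6 gene lists from the control mean of 48 h (y axis) on the single arrays of control and RHOXF1 cells at 24 h and 48 h; each point is an array. For HSP70 and HSP110 genes the RHOXF1 arrays of 48 h (0.14 to 0.32) lie above the control arrays of 48 h (-0.04 to 0.07), and for H/ACA RNAs they run from -0.31 to 0.11.

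Further lists were chosen for this tissue and treatment. Replication-dependent histone genes, which supply S phase, had 49 of 68 higher (median 0.08), but this was -0.02 without control replicate 3 and 0.23 without control replicate 1. Cytosolic ribosomal protein genes had 41 of 64 higher (median 0.02). Without overlap, 10 lay above control (15.6%, against 7.17% of all clusters), among them RPS23 (0.17 ± 0.07) and RPS24 (0.20 ± 0.09). RPL22 (-0.26 ± 0.10) and RPL37A (-0.22 ± 0.09) lay below it without overlap (3.125%, against 5.39%). Cholesterol synthesis genes had 11 of 17 higher (median 0.04) and 3 above control without overlap (17.6%, against 7.17% of all clusters). DHCR7 read 10.50, 10.49 and 10.38 against 10.24, 10.20 and 10.05 (0.29 ± 0.11). G1/S genes had 18 of 29 higher and G2/M genes 19 of 28 lower, with medians of 0.09 and -0.03, which were 0.03 without control replicate 1 for G1/S and -0.01 without control replicate 2 for G2/M; the replication repressor gene E2F8 read 8.49, 8.26 and 8.43 against 8.58, 8.95 and 8.66 (-0.34 ± 0.11). Targets of p53 split evenly (10 and 10). Interferon-stimulated genes, a usual sign of a response to foreign DNA, had 13 of 23 higher with a median of 0.03 (-0.01 without control replicate 2). Only 1 of the 23 lay above the median level of all clusters. IFNB1 read 3.58, 3.27 and 3.70 against 3.58, 3.77 and 3.68. Control cells also received a plasmid, so a response common to both vectors cannot show in these differences. The NF-kappa-B subunit gene RELB read 7.13, 7.61 and 7.00 against 6.87, 7.02 and 6.86 (0.33 ± 0.13).

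Genes of the endoplasmic reticulum chaperones were level as a list (9 of 20 higher, median -0.01). CRELD2, a folding factor secreted under reticulum stress, read 7.49, 7.62 and 7.69 against 7.19, 7.17 and 7.40 (0.35 ± 0.09, adjusted p = 0.421), and HYOU1 9.04, 9.03 and 9.04 against 8.91, 8.70 and 8.81 (0.23 ± 0.11). HSPA5, the main chaperone of the reticulum, read 11.71, 11.26 and 11.34 against 11.29, 11.84 and 11.70, with overlap (-0.17 ± 0.13). Targets of ATF4, the amino acid and unfolded protein factor, had 14 of 20 lower with a median of -0.07, which was 0.08 without RHOXF1 replicate 2. Hypoxia genes had 15 of 23 lower with a median of -0.05, which was 0.14 without control replicate 2 and -0.22 without control replicate 3. Neither list had a direction that held over the arrays. Neuronal genes that HEK293 cells express had 11 of 19 lower; PRRT2, a synaptic membrane protein gene, read 7.61, 7.81 and 7.80 against 8.0, 8.20 and 8.04 (-0.34 ± 0.09, unadjusted p = 0.00132), and GABBR1, a subunit of the GABA-B receptor, 9.34, 9.54 and 9.47 against 9.78, 9.92 and 10.02 (-0.46 ± 0.14).

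The effect at 48 h was next set beside that at 24 h, which rests on other arrays. Across clusters, without those of the RHOXF genes, the differences of the 2 times correlated at r = 0.137, a description over genes that are not independent and that share the array type. Of 1521 clusters with all RHOXF1 arrays above control at 48 h, 905 were above 0 at 24 h (59.5%, where 50.1% of all clusters were). Of 1144 with all below, 490 were above 0 at 24 h (42.8%). Of the 14 genes of smallest p that read higher, 12 were above 0 at 24 h too; of the 14 that read lower, 9 were below 0. DNAJB1 (0.64 ± 0.22), SNAI1 (0.53 ± 0.13) and SGK1 (0.34 ± 0.11) had the largest differences at 24 h among the former, none of them called. In control cells all 14 of the former read lower at 48 h than at 24 h, and all 14 of the latter higher. In RHOXF1 cells 8 of the former read higher at 48 h and 6 lower, and of the latter 6 higher and 8 lower. The control arrays of 48 h enter both the choice of these genes and the change in control.

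**Figure D5:**
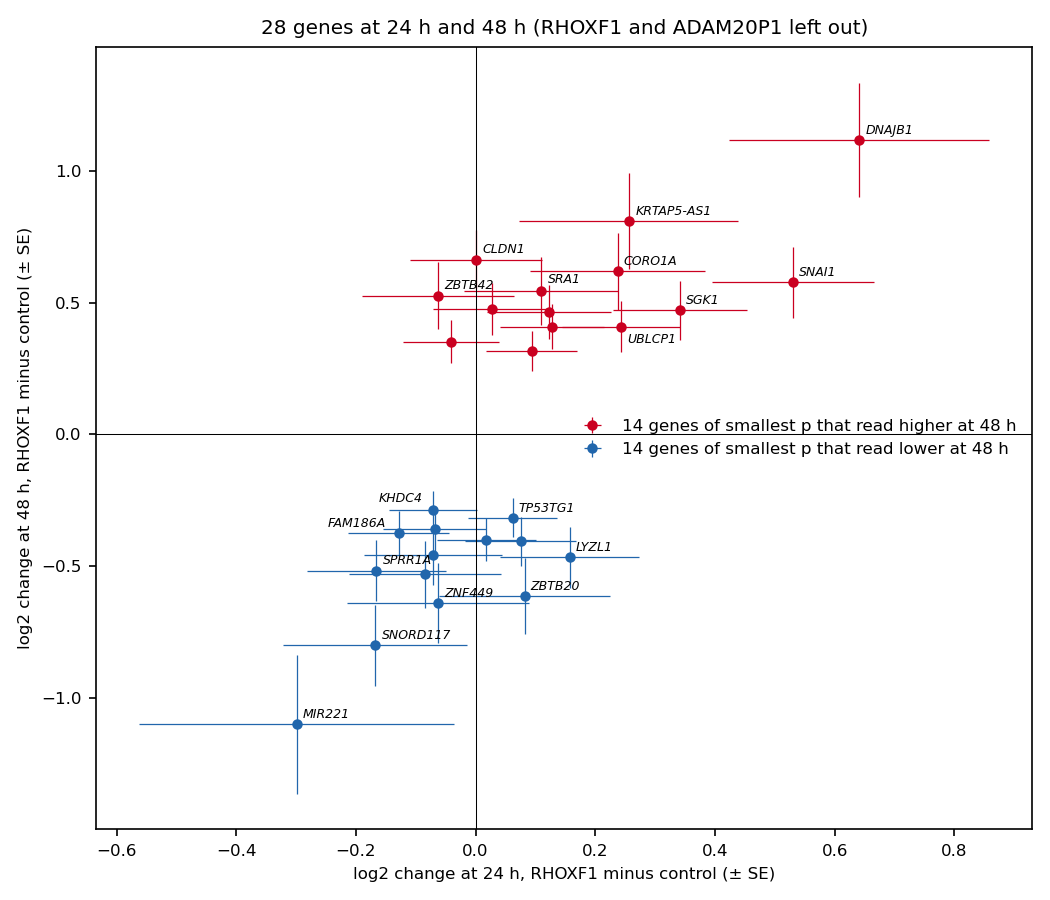
Log2 difference, RHOXF1 minus control, at 24 h (x axis) and 48 h (y axis) of the 14 genes of smallest p that read higher and the 14 that read lower at 48 h; points are fitted differences with their SE, and some are named. DNAJB1 (0.64 and 1.12) and SNAI1 (0.53 and 0.58) lie farthest to the upper right, and CLDN1 lies on the vertical zero line (0.00 and 0.66).

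The difference between the effects of 48 h and 24 h, tested as an interaction, passed for no cluster (limma, 0 called), and 998 had an unadjusted p under 0.05 (4.70%). Among those of smallest p beside ADAM20P1 and CLDN1 was ZFP14, a zinc finger gene, at -0.42 ± 0.12 for 48 h and 0.37 ± 0.12 for 24 h (unadjusted p = 0.000201). CCDC88C, a regulator of Wnt signalling, read 0.30 and -0.28 (unadjusted p = 0.000201), and WFDC8, a protease inhibitor-like gene, 0.33 and -0.21 (unadjusted p = 0.000236). The adjusted p of each was 0.950. ZFP14 read 5.51, 4.93 and 4.95 against 5.61, 5.65 and 5.40, so its replicate 1 lay apart from the others, and without that array it was called at 48 h (-0.61, adjusted p = 0.0317).

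A direct comparison with RHOXF2 cells of 48 h, the other homeobox gene of the series, used the same RHOXF1 arrays. The test of limma called 11 clusters (0.0519%), 1 higher and 10 lower (0.0471%) with RHOXF1. The higher one was RHOXF1 itself. The lower ones, beside a pair of RHOXF2 clusters, were ANKRD1 (-2.34 ± 0.20, adjusted p = 2.71e-06), the trophoblast factor gene GCM1 (-0.87 ± 0.12, adjusted p = 0.00467), KRTAP19-5 (-0.70 ± 0.11, adjusted p = 0.0114) and 5 clusters shared by HSPA1A and HSPA1B, 2 of them identical in value (-0.58 to -0.79, adjusted p = 0.0114 each). KRTAP19-5 and the HSPA1A and HSPA1B clusters lost the call where RHOXF1 replicate 2 or 3 or RHOXF2 replicate 2 was left out, where the adjustment ran over all clusters of the table, and where only the 9 arrays of 48 h set the spread. KRTAP19-5 lost it also without RHOXF1 replicate 1 and with the replicate block, and GCM1 without RHOXF2 replicate 2. RHOXF1 read 12.25 to 12.29 in its own cells and 7.75, 7.03 and 9.12 in RHOXF2 cells, which exceed the control arrays. Of the 10 HSP70 and HSP110 genes all 10 read lower with RHOXF1 than with RHOXF2, with a median of -0.18, where 49.0% of all clusters read higher. HSPH1 (-0.77 ± 0.15, adjusted p = 0.135) and HSPA6 (-1.55 ± 0.30, adjusted p = 0.0937) came next to the threshold. With the replicate number as a block both were called (adjusted p = 0.0405 for HSPH1 and 0.0318 for HSPA6), as they were with array weights (0.0217 and 0.00230).

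Genes of the RHOXF1 comparison itself differed less between the vectors. ADAM20P1 read 4.20, 4.50 and 4.15 with RHOXF2, against 4.38, 4.04 and 3.98 with RHOXF1 (-0.14 ± 0.14, adjusted p = 0.998). CLDN1 read 5.74, 5.66 and 5.71 with RHOXF2, below each RHOXF1 array (0.36 ± 0.11, unadjusted p = 0.00465, adjusted p = 0.998). These RHOXF2 arrays of CLDN1 all lay above the control arrays of 48 h, with a difference of 0.31 ± 0.11 (limma adjusted p = 0.281). DNAJB1 read 10.34, 10.75 and 10.06 with RHOXF2, of which replicate 3 lies within the RHOXF1 range (-0.46 ± 0.22). Against the same control arrays of 48 h, RHOXF2 cells differed by 1.57 ± 0.22 for DNAJB1 (limma adjusted p = 0.00153). For ADAM20P1 they differed by -0.94 ± 0.14 (limma adjusted p = 0.00359), so both differences were also found with RHOXF2. SGK1 read higher with RHOXF1 by 0.45 ± 0.11 (unadjusted p = 0.000820, adjusted p = 0.911), and NPPC, a natriuretic peptide gene, by 0.38 ± 0.10. The RHOXF1 and RHOXF2 means of ZBTB20, MDM4 and ACTL6A differed by at most 0.01, and SNORD117 differed by -0.02.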

How the data were processed

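RNA of transfected HEK293 cells was hybridised to 18 Affymetrix Human Gene 1.0 ST arrays, as the array descriptions and cluster IDs show, although the series text speaks of exon arrays. The deposited values are log2 levels that the authors obtained with Affymetrix Expression Console 3.1 and RMA, per the submitters' processing notes; the genome build is not given in the sources used here. Intensities before RMA were not analysed here, so the number of arrays limits the precision. Symbols came from GEO's platform annotation: 19461 clusters had 1 symbol, 1753 several and 12083 none, and 703 had values identical to another cluster.

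One mean per group was fitted over all 18 arrays with limma 3.58.1 in R 4.3.3 (residual df 12, prior df 6.50), with Benjamini-Hochberg adjustment over 21214 clusters and a threshold of 0.05. Named genes are the transfected genes, all called ones, the 15 of smallest p without overlap in each direction, and leading members of the lists. The members and lists were chosen with earlier results of these data known, and the patterns that collect microRNA and keratin-associated protein genes were narrowed after the values had been seen. Alternatives were other normalizations, filters, variance models and array sets. Over all named clusters, RHOXF1 and control arrays of 48 h with the same replicate number did not deviate together (r = -0.263, -0.043 and -0.065). The main fit does not pair them. These r values do not describe single genes. For SNORA38, replicate 2 was the highest array of the RHOXF1 and control groups at both times, and the replicate block called it. One of the 15 genes that read higher is not reported here.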

Additional observations from a re-analysis of the deposited data

Results flagged for a closer look

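Beside RHOXF1 and RHOXF2 themselves, which each vector supplied, the effects of the 2 vectors at 48 h differed for 4 of the named genes by limma's test of the difference itself, over 3 arrays against 3. ANKRD1, a cardiac ankyrin repeat gene, differed by -2.34 (RHOXF1 minus RHOXF2, adjusted p = 2.71e-06), with a mean of 7.91 in RHOXF2 cells. GCM1, a placental transcription factor gene, differed by -0.87 (adjusted p = 0.00467). KRTAP19-5 differed by -0.70 and the brightest HSPA1B/HSPA1A cluster by -0.58 (adjusted p = 0.0114 for both). These last 2 calls were lost without RHOXF1 replicate 2 or 3 or RHOXF2 replicate 2, over all clusters of the table and with the 9 arrays of 48 h. The HSPA1B/HSPA1A one was also lost without RHOXF2 replicate 1, that of KRTAP19-5 also with the replicate block and without RHOXF1 replicate 1, and that of GCM1 without RHOXF2 replicate 2. For ANKRD1, GCM1 and KRTAP19-5 all 3 RHOXF1 arrays lay below all 3 RHOXF2 arrays.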

How the results depend on the processing

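The RHOXF1 difference stayed called, at 5.92 to 6.34, under all 18 alternatives. The 2 called clusters became 1 with clusters above the lower quartile or above the median level only (which leave ADAM20P1 out), and 1 with the 6 arrays or the 9 arrays of 48 h alone. Leaving out 1 array gave 1 to 4 calls: 4 without RHOXF1 replicate 1, where CLDN1 and ZFP14 joined, and 1 without RHOXF1 replicate 2 or 3. With the replicate number as a block there were 5 calls, adding DNAJB1 (adjusted p = 0.0175), SNORA38 (0.00562) and the SNHG1/SNORD27 cluster (0.0423). The time difference had 0 to 1 calls on leaving out an array, the 1 being ZFP14 (-0.98, adjusted p = 0.0128) without RHOXF1 replicate 1. The 11 calls against RHOXF2 became 5 over all clusters of the table, 4 with clusters of 1 symbol, 5 with the 9 arrays, 14 with array weights, 12 with the replicate block, and 4 to 12 on leaving out an array of 48 h (5 without RHOXF1 replicate 2 or 3, 4 without RHOXF2 replicate 2); leaving out RHOXF2 arrays was chosen after seeing the data. Of clusters without a symbol, 0 were called, or 1 when adjusted over all clusters. UBXN7-AS1, at -0.02, was 0.0008 with array weights and 0.0945 without control replicate 1, and ran down to -0.0939 on leaving out other arrays. The causes were not tested.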

Other observations

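The 12083 clusters without a gene symbol were tested apart from the others. limma called 0 of them, 193 had an unadjusted p under 0.05 and read higher (1.60%), and 577 read lower (4.78%), with a median difference of -0.03 and a smallest adjusted p of 0.0988. The cluster of smallest p read 3.058, 3.060 and 3.077 with RHOXF1 against 3.546, 3.611 and 3.596 in control (-0.52). These are near the bottom of the scale, and the clusters as a whole had a median level of 5.47 where named clusters had 7.47.

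Among other gene families, 170 of 382 olfactory receptor clusters, none of them above the median level of all clusters, read higher and 212 lower (median -0.01), and 29 of 75 keratin-associated protein genes read higher and 46 lower (median -0.02). Of 15 metallothionein clusters 10 read lower, with a median of -0.05 that was -0.29 without control replicate 3 and 0.08 without control replicate 1.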
